A study of Homo sapiens with 6 samples.

Results

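The regions described here are gene ends marked by acetylated histone H3 lysine 27 (H3K27ac) in every H3K27ac library of a study on cell lines of T-ALL, a human acute lymphoblastic leukaemia of the T-cell lineage. Peaks of the 3 libraries that shared at least 1 base were joined into union regions. A region was kept when it held a peak of every library, lay within 1 kb of an annotated end of a protein-coding gene and held no single peak of 4 kb or wider. This left 4181 members of 49528 union regions on chromosomes 1 to 22 and X, or 48.5% of the 8620 regions shared by all 3 libraries. The other shared regions were 4194 that lay over 1 kb from any gene end, called distal here, and 245 gene-end regions with a wide peak. Presence in every library, position and width chose the members, so none of these is a result below.

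The groups were 6T-CEM, with 1 H3K27ac library, and Jurkat, with 2, both established T-ALL cell lines. The other 3 of the 6 samples were IgG controls and were not analysed here. The series title names the BET inhibitor GNE-987 and its description a treatment of 10 nM for 24 h, but no label gives a treatment to any sample, so each library may come from treated or untreated cells. Nothing in the labels says that the Jurkat libraries came from separate cultures, so the spread between them may be technical. No test between the lines was run, because a single 6T-CEM library shows no spread of its own. The 6T-CEM list had 35154 peaks, against 16159 and 32097 in Jurkat replicates 1 and 2, and gave no read counts, so depth is unknown. Peaks lay at an end, within 1 kb, of 41.3% of all protein-coding genes in 6T-CEM, against 37.9% and 34.0% in the Jurkat libraries. Of 8 T-cell marker genes, 7 had one in 6T-CEM, against 6 and 8 in Jurkat. Of 6 B-cell markers 3 did in 6T-CEM, against 2 and 3 in Jurkat, near the share over all genes. Of 6 myeloid markers 1 did in 6T-CEM, against 0 and 2 in Jurkat, and none of 5 erythroid markers did in any library, though SLC4A1 of the longer erythroid list had a peak in 6T-CEM and in Jurkat replicate 2. CD79A, a chain of the B-cell receptor complex, was a member.

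H3K27ac is laid down by the acetyltransferases p300 and CBP on nucleosomes that flank active promoters and enhancers, and BET proteins bind acetylated lysines of this kind. At most promoters of widely used genes, the start lies in a CpG island, a stretch rich in CG dinucleotides that stays largely unmethylated. The nucleosome just downstream of such a start is well positioned and acetylated, while the start itself lies in a nucleosome-depleted gap. Broad acetylated domains are more often found at genes of cell identity, and the width limit set those apart here.

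The promoters of 8 genes show what sequence lay under the members. They are from RefSeq (GRCh38.p14, the same build as hg38), run 5′ to 3′ on the strand of the gene, and cover 250 bases before to 50 after the start. Capitals mark matches, on either strand, to 9 short motifs described with the promoter results. The promoters of DDX17 (minus strand, chr22:38506262-38506561), RCC1 (plus strand, chr1:28505793-28506092) and H4C11 (plus strand, chr6:27823842-27824141) belong to members of the highest fold enrichment in all 3 libraries. JAK3 (minus strand, chr19:17847933-17848232) had the wider peak in 6T-CEM, and PER1 (minus strand, chr17:8152355-8152654) and THOC5 (minus strand, chr22:29553708-29554007) the wider peak in Jurkat. HSPD1 (minus strand, chr2:197500225-197500524) shares its region with a gene that faces away from it. LAT (plus strand, chr16:28984553-28984852) is the T-cell gene with the lowest CpG content among the members with a promoter sequence.
DDX17: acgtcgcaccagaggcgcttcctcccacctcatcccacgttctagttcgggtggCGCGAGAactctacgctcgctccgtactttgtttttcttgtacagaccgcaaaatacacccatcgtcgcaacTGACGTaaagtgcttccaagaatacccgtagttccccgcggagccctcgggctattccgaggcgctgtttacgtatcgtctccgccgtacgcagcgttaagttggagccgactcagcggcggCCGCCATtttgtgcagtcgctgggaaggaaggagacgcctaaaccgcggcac
RCC1: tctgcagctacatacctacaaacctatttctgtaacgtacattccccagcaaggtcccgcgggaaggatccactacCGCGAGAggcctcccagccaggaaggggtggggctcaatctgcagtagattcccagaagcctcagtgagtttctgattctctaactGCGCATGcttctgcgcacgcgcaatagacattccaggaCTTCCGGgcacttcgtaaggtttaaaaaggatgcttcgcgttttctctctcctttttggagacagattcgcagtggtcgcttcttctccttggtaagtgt
H4C11: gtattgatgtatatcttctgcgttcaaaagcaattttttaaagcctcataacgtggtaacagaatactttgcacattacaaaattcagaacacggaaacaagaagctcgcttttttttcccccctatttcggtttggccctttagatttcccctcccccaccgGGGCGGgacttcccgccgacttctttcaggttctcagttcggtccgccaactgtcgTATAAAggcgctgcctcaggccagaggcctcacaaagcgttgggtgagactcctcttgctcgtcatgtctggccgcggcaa
JAK3: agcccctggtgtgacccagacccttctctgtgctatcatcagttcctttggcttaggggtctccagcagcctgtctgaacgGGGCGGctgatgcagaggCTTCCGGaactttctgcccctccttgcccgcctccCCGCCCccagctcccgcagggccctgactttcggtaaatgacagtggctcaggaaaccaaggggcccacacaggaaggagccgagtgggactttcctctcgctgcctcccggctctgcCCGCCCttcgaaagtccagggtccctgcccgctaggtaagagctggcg
PER1: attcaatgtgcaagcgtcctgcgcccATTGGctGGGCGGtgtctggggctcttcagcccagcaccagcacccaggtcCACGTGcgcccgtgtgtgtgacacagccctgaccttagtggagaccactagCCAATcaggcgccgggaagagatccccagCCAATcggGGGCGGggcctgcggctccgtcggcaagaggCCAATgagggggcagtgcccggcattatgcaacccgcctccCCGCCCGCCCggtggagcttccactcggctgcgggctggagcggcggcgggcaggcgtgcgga
THOC5: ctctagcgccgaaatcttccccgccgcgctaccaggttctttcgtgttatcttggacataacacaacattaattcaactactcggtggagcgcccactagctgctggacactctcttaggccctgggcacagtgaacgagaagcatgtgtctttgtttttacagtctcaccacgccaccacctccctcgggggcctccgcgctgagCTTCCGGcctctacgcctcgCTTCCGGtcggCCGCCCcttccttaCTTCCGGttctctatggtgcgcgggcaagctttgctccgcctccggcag
HSPD1: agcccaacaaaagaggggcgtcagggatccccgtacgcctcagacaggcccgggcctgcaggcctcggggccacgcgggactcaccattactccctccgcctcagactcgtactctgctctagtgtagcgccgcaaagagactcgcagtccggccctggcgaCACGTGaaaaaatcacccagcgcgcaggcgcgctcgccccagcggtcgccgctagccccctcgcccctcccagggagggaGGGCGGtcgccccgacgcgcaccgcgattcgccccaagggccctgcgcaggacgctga
LAT: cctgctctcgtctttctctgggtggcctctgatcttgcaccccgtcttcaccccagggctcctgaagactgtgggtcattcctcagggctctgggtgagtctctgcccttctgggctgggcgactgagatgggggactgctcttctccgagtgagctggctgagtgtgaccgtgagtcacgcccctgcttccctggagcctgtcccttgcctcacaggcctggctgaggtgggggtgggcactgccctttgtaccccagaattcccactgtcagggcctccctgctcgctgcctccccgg

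The motif nearest the start was GGGCGG at JAK3, PER1 and HSPD1 and CCGGAAG at RCC1 and THOC5. DDX17 held ATGGCGG, on the opposite strand, from 2 bases before its start, and H4C11 held TATAAA from 31 bases before its start. RCC1 held CCGGAAG from 50 bases before its start, and THOC5 held it 3 times within 44 bases of its start, all on the opposite strand. PER1 held 9 matches, 4 each of CCAAT and GGGCGG and 1 of CACGTG. LAT held none of the 9 motifs in this window. Its ratio of observed to expected CpG was 0.261, against 1.35 at DDX17.

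A member was the start of a gene far more often than its 3′ end. Of 3536 members whose nearest gene end could be placed on a strand, 3340 (94.5%, 95% Clopper-Pearson interval 93.7 to 95.2, counting error only) had a start nearest. The other 196 had a 3′ end nearest. Of these, 59 also had a listed start of a protein-coding gene within 1 kb, which for a short gene could be its own. Another 13, with no such start, had the start of a long noncoding RNA gene within 1 kb. The remaining 645 members lay at genes with no listed strand. In all, 5032 of 19974 protein-coding genes (25.2%) had a member at an end. Most members, 3120 (74.6%), lay at the ends of 1 gene, 993 at those of 2, 65 at those of 3 and 3 at those of 4.

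Acetylation peaked just downstream of the start in each library. In the 2804 members with 1 start, the median position of the highest peak's summit was 220 bp downstream in 6T-CEM, against 186 bp and 229 bp in Jurkat replicates 1 and 2. The summit lay downstream in 79.5% of these members in 6T-CEM, against 76.2% and 78.4% in Jurkat. The band from 100 to 400 bp downstream held 47.3% of the summits in 6T-CEM, against 50.2% and 47.6% in Jurkat. The band of the same width upstream held 10.4% in 6T-CEM, against 12.8% and 9.95% in Jurkat. Within 100 bp of the start lay 8.84% of the summits in 6T-CEM, against 12.3% and 7.31% in Jurkat. The window within 100 bp of the start is narrower than these bands, so its share is not like for like. In bins of 100 bp, the first downstream of the start held 6.13% in 6T-CEM, against 7.74% and 4.89% in Jurkat. The bin from 200 to 300 bp upstream held 4.49% in 6T-CEM, against 6.17% and 4.07% in Jurkat. The summit thus lay mostly inside the gene in all 3 libraries, with a smaller group upstream.

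**Figure D1:**
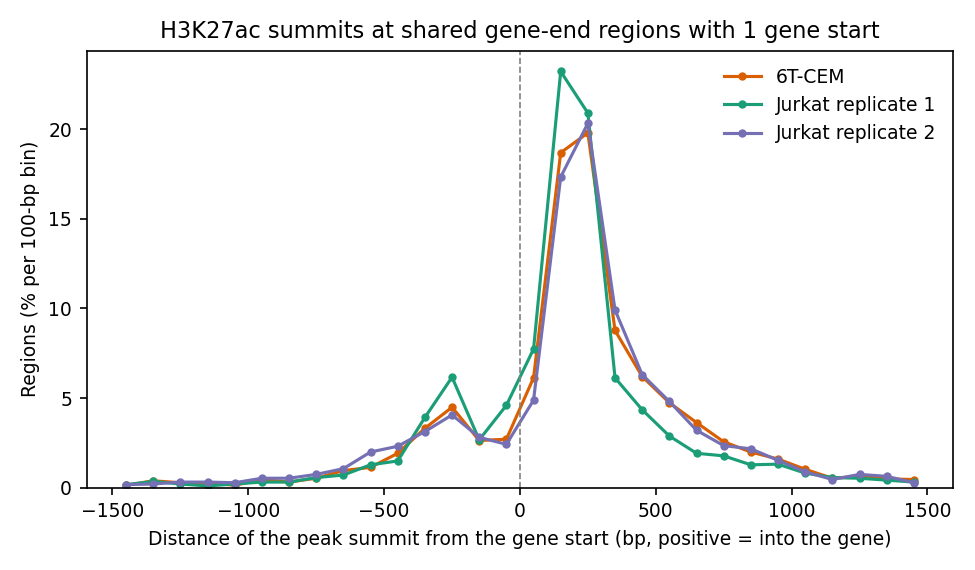
Share of summits (percent of 2804 members with 1 start, in bins of 100 bp) by distance from the gene start in bp, downstream positive, for 6T-CEM and the 2 Jurkat libraries. All 3 curves are highest between 100 and 300 bp downstream and fall to a low point within 200 bp upstream of the start, with a smaller rise farther upstream.

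The side of the start was mostly shared. In 1868 of the 2804 members (66.6%) the summit lay downstream in all 3 libraries and in 348 (12.4%) upstream in all 3, while in 21.0% the side differed between libraries. DDX17, an RNA helicase gene, had its summit 261 bp downstream in 6T-CEM, against 235 bp and 462 bp in Jurkat. The summit of H4C11, a gene for histone H4, lay 271 bp downstream in 6T-CEM, against 248 bp and 252 bp in Jurkat. At LAT, which encodes a scaffold of T-cell receptor signalling, the summit lay 1061 bp downstream in 6T-CEM, against 88 bp and 881 bp in Jurkat, so that the libraries did not share a place.

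Over all 4181 members, the summits of 6T-CEM lay a median of 121 bp and 109 bp from those of Jurkat replicates 1 and 2, and the Jurkat summits lay 126 bp from each other. The lines were thus no farther apart in summit position than the Jurkat libraries were. In the 4194 distal regions these gaps were 183 bp and 118.5 bp between the lines and 199 bp within Jurkat. The gap exceeded 500 bp in 14.4% and 13.4% of members between the lines, and in 14.9% within Jurkat.

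The widths of the members are given as description, since the 4 kb limit of the rule caps them. The bases covered by peaks had a median of 1180 bp in 6T-CEM (quartiles 787 and 1686), against 1201 bp (827 and 1678) and 1000 bp (635 and 1530) in Jurkat replicates 1 and 2. In the wide gene-end regions, set apart by the rule itself, the medians were 5151 bp in 6T-CEM, against 2954 bp and 4729 bp in Jurkat. In 3311 members (79.2%) each library had exactly 1 peak, and the median span was 1555 bp, with a range of 394 to 6924 bp. The members held 16.4% of the bases under peaks in 6T-CEM, against 33.6% and 17.9% in Jurkat, the highest share being in the library with the shortest list.

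The rank of enrichment was only loosely shared between libraries. The fold enrichment at the summit, the authors' own value for each peak, had a median of 4.88 in 6T-CEM, against 6.02 and 4.53 in Jurkat replicates 1 and 2. Distal regions had medians of 6.18 in 6T-CEM, against 5.37 and 5.62 in Jurkat. In 6T-CEM and Jurkat replicate 2 the members thus lay below the distal regions, and in Jurkat replicate 1 above them. Across the 4181 members, Spearman's rho of the fold was 0.18 and 0.42 between 6T-CEM and Jurkat replicates 1 and 2, and 0.26 between the Jurkat libraries. For covered bases it was 0.50 and 0.64 between the lines and 0.57 within Jurkat. These correlations are across regions of the same genome in the same libraries and are given as descriptions. By rho of either measure 6T-CEM resembled Jurkat replicate 2 more than the Jurkat libraries resembled each other.

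The members with the highest fold in every library were of several kinds. The first 3 by the lowest of the 3 within-library percentiles were DDX17, RCC1 (the exchange factor of the GTPase Ran) and CD84 (a receptor of the SLAM family on lymphocytes). DDX17 had a fold of 16.1 in 6T-CEM, against 17.2 and 15.7 in Jurkat. RCC1 had a fold of 16.3 in 6T-CEM, against 12.3 and 12.7 in Jurkat. CD84 had a fold of 11.97 in 6T-CEM, against 16.0 and 10.6 in Jurkat. Next were H4C11, the olfactory receptor gene OR10T2, the zinc-finger gene ZFX, ARID1A (a subunit of SWI/SNF chromatin remodellers) and RBM39 (an RNA-binding protein of splicing). OR10T2 belongs to a family known for smell, and its region held both ends of this short gene, with 744 bp under peaks in 6T-CEM, against 3314 bp and 853 bp in Jurkat. ARID1A had 3452 bp under peaks in 6T-CEM, against 3722 bp and 3259 bp in Jurkat.

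The 4 members with the most gene ends were dense clusters of genes. The region chr3:9791156-9793769 held the starts of ARPC4 (a subunit of the Arp2/3 complex), of its readthrough gene ARPC4-TTLL3 and of TADA3 (an adaptor of histone acetyltransferase complexes) together with the 3′ end of OGG1 (a DNA glycosylase for oxidised guanine). It had 1384 bp under peaks in 6T-CEM, against 2129 bp and 2126 bp in Jurkat. The region chr1:26278568-26282087, with both ends of SH3BGRL3 and the 3′ ends of CEP85 and UBXN11, had 3161 bp in 6T-CEM, against 1269 bp and 3236 bp in Jurkat. The region chr20:35276608-35278390 lay at the 3′ ends of EIF6 and MMP24, the start of MMP24-AS1-EDEM2 and both ends of MMP24OS. It had 1141 bp in 6T-CEM, against 570 bp and 1783 bp in Jurkat. The region chr19:70287-71275 lay at 4 uncharacterised genes near the end of the chromosome and had 989 bp in 6T-CEM, against 320 bp and 405 bp in Jurkat.

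Many members served a pair of genes transcribed away from each other. A head-to-head pair had starts on opposite strands, no more than 1000 bp apart and facing outward. There were 817 such pairs in the annotation and 408 (49.9%) had both starts in a member. That no pair had only 1 start in a member was nearly fixed by the definitions. A start within 1 kb of a member counted as in it, and paired starts lie no more than 1000 bp apart. Of the 1622 genes in such pairs 50.1% had their start in a member, against 22.01% of the 14191 genes in no pair. A paired gene could count through a peak at its neighbour's start, and these shares were not adjusted for that. These 408 members were 12.1% of the members with a start, and the median gap between their starts was 200.5 bp. At the pair of HSPD1 and HSPE1, the genes of the mitochondrial chaperonin and its lid, peaks covered 2154 bp in 6T-CEM, against 2116 bp and 2145 bp in Jurkat. At the pair of GART, an enzyme of purine synthesis, and SON, a splicing factor, they covered 2448 bp in 6T-CEM, against 2304 bp and 2484 bp in Jurkat. At the pair of ATM, a kinase of the DNA damage response, and NPAT, a regulator of histone genes, they covered 1437 bp in 6T-CEM, against 2549 bp and 325 bp in Jurkat. The first 2 pairs varied little between libraries, and the third varied most between the Jurkat libraries.

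The summit lay between the paired starts in a minority of these members. It did so in 14.0% of the 408 members in 6T-CEM, against 24.3% and 10.8% in Jurkat replicates 1 and 2. It lay inside the gene on the minus strand in 44.9% in 6T-CEM, against 38.5% and 42.4% in Jurkat. It lay inside the gene on the plus strand in 41.2% in 6T-CEM, against 37.3% and 46.8% in Jurkat. The stretch between the starts was short, with a median of 200.5 bp, so its share is not like for like with those inside the genes. Paired members had a median of 1251 bp under peaks in 6T-CEM, against 1435.5 bp and 1018.5 bp in Jurkat. Members with 1 start had 1151 bp in 6T-CEM, against 1192 bp and 983 bp in Jurkat.

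The promoters of members were rich in CpG, as were those of other genes with peaks in several libraries. Of the 19974 protein-coding genes, 15813 had a promoter sequence, and 3935 of these had their start in a member. The ratio of observed to expected CpG had a median of 0.882 in member promoters (95% order-statistic interval 0.875 to 0.887), against 0.691 in the 11878 other promoters. The other genes were grouped by the peaks within 1 kb of their start. The ratio was 0.784 for the 160 genes at wide shared regions and 0.877 for the 208 with peaks of 3 libraries but no shared region. It was 0.855 for the 1649 with peaks in 2 libraries and 0.542 for the 8018 with no peak at the start in any library. Of the 8223 promoters with a ratio of 0.75 or more, 37.2% were in a member, against 5.11% of the 4519 with a ratio under 0.48. Between these limits 21.1% of 3071 were in a member. Within the members with 1 start, the ratio was nearly unrelated to covered bases, with a Spearman's rho of −0.01 in 6T-CEM, against 0.09 and 0.04 in Jurkat, across 2779 promoters.

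Low-CpG members were wider, by more in 6T-CEM and Jurkat replicate 2 than in Jurkat replicate 1. The 178 members with 1 start and a ratio under 0.48 had a median of 1629.5 bp under peaks in 6T-CEM, against 1261.5 bp and 1396 bp in Jurkat replicates 1 and 2. The 2158 with a ratio of 0.75 or more had 1146.5 bp in 6T-CEM, against 1209.5 bp and 982.5 bp in Jurkat.

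Of the 9 motifs, 3 were far more frequent in member promoters than in all promoters. They were searched on both strands with overlaps allowed, and a match is a stretch of letters, not a bound site. CCGGAAG, the core bound by ETS factors, was in 26.5% of member promoters, against 23.5% for genes with peaks in 2 libraries and 14.2% of all 15813. ATGGCGG, a core of the YY1 site, was in 15.8% of member promoters, against 10.3% for genes with peaks in 2 libraries and 7.63% of all. TCTCGCG, part of the palindromic element bound by BANP, was in 9.81% of member promoters, against 6.97% for genes with peaks in 2 libraries and 4.93% of all. TATAAA, the TATA box, was in 5.26% of member promoters, against 9.64% of all and 14.1% of those of genes with no peak at the start. It was in 4.43% for genes with peaks in 2 libraries and 5.05% for those with peaks in 1. The lower share was thus not particular to the members. CCAAT, the box bound by NF-Y, was in 36.0% of member promoters, against 36.3% of all.

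The other motifs lay between these. GGGCGG, the GC box bound by Sp1 and KLF factors, was in 70.4% of member promoters, against 58.5% of all. TGACGT, a core bound by CREB and ATF factors, was in 14.2% of member promoters, against 9.66% of all. GCGCATG, part of the NRF1 site, was in 8.82% of member promoters, against 5.87% of all. CACGTG, the E-box bound by MYC with MAX and by USF factors, was in 11.2% of member promoters, against 8.87% of all. At least 1 of the 9 was in 93.1% of member promoters, against 85.0% of all.

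Since CpG content differs between these sets, the shares were also taken among promoters with a ratio of 0.75 or more, a choice made after the data had been seen. CCGGAAG was then in 28.5% of the 3056 member promoters, against 16.2% of the 5167 others, and ATGGCGG in 17.9% of member promoters, against 8.28% of the others. TCTCGCG was in 11.6% of member promoters, against 6.12% of the others. GGGCGG turned round, with 74.8% of member promoters, against 82.5% of the others, and TATAAA was in 4.58% of member promoters, against 4.57% of the others. Matches of ATGGCGG in members had a median position of 12 bases after the start, and 69.1% lay within 50 bases of it, against 62.0% in other promoters. Those of CCGGAAG in members had a median position of 46 bases before the start, and those of CCAAT 98 bases before it.

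**Figure D2:**
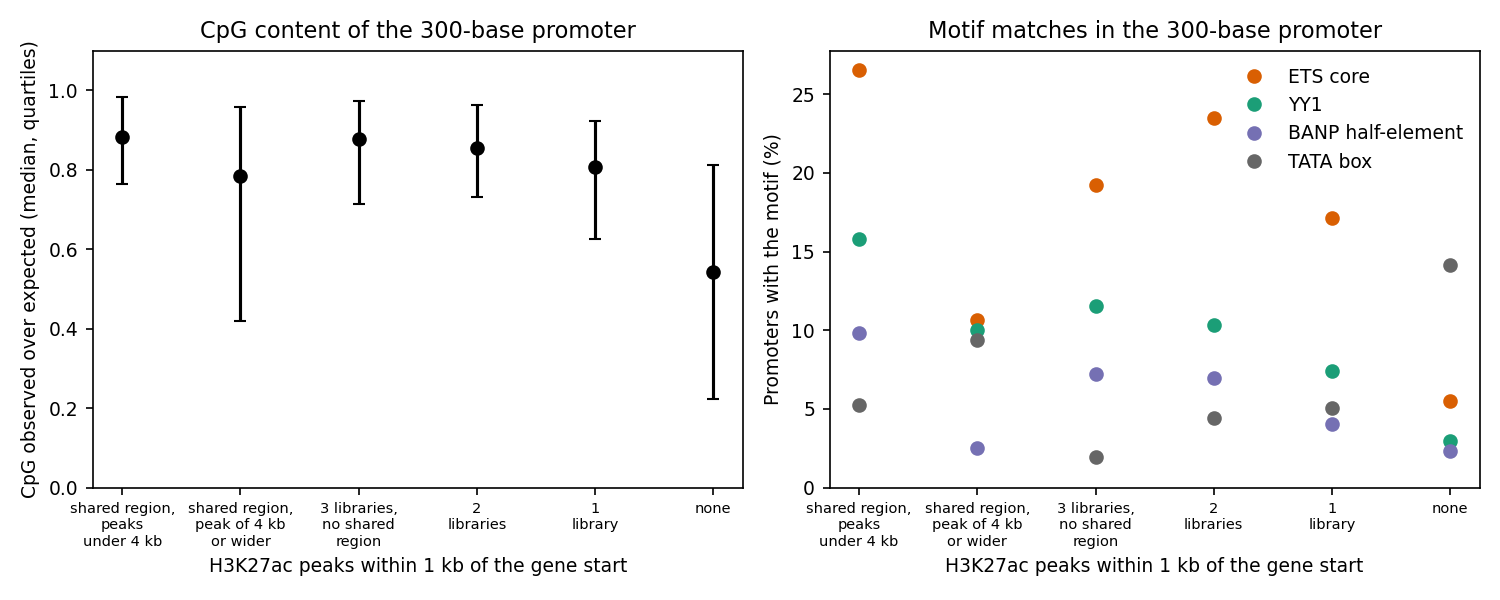
CpG observed over expected (left, median and quartiles) and share of promoters with 4 motifs in percent (right), for promoters grouped by the H3K27ac peaks within 1 kb of the gene start. The members stand at the far left, with a median of 0.882 and CCGGAAG (ETS core) in 26.5%, against 0.542 and 5.50% for genes with no peak at the far right.

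Genes of basic cell machinery were often members, and genes of other tissues were not. For reading these shares, 25.2% of all protein-coding genes had a member. Of 22 genes of splicing factors 21 had one, the exception being SNRPD2, a core protein of the spliceosomal RNA particles, with peaks in 6T-CEM and Jurkat replicate 1 only. Of 16 genes of chaperonins and heat-shock proteins 15 did, and of 26 translation initiation factor genes 22 did. The transfer RNA synthetases of the cytosol had 15 of 20, and 18 of 30 Mediator genes and 17 of 28 DNA replication genes had a member. RNA polymerase II subunits had 5 of 12 and general transcription factors 7 of 17. TBP, the TATA-binding protein, had no peak at an end in 6T-CEM, against 1 or more in either Jurkat library. Of 10 myeloid, 10 erythroid and 12 non-blood genes, none had a member.

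Some lists lost genes to the width limit. Of 12 genes of BET proteins, their partners in elongation and known BET-dependent genes, 9 were members, and BRD2, MYC and CDK6 lay at regions with a wide peak. Of 12 housekeeping references 7 were members, while ACTB and GAPDH lay at wide regions. Of 25 T-cell genes 9 were members and 7 lay at wide regions, among them CD3D, CD3G, CD2 and LCK. PTPRC, GATA3 and ETS1 had no peak within 1 kb of an end in any library. Over the 9 T-cell promoters with their start in a member, the median CpG ratio was 0.545, against 0.882 over all member promoters. CD3E, a member, had no promoter sequence.

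**Figure D3:**
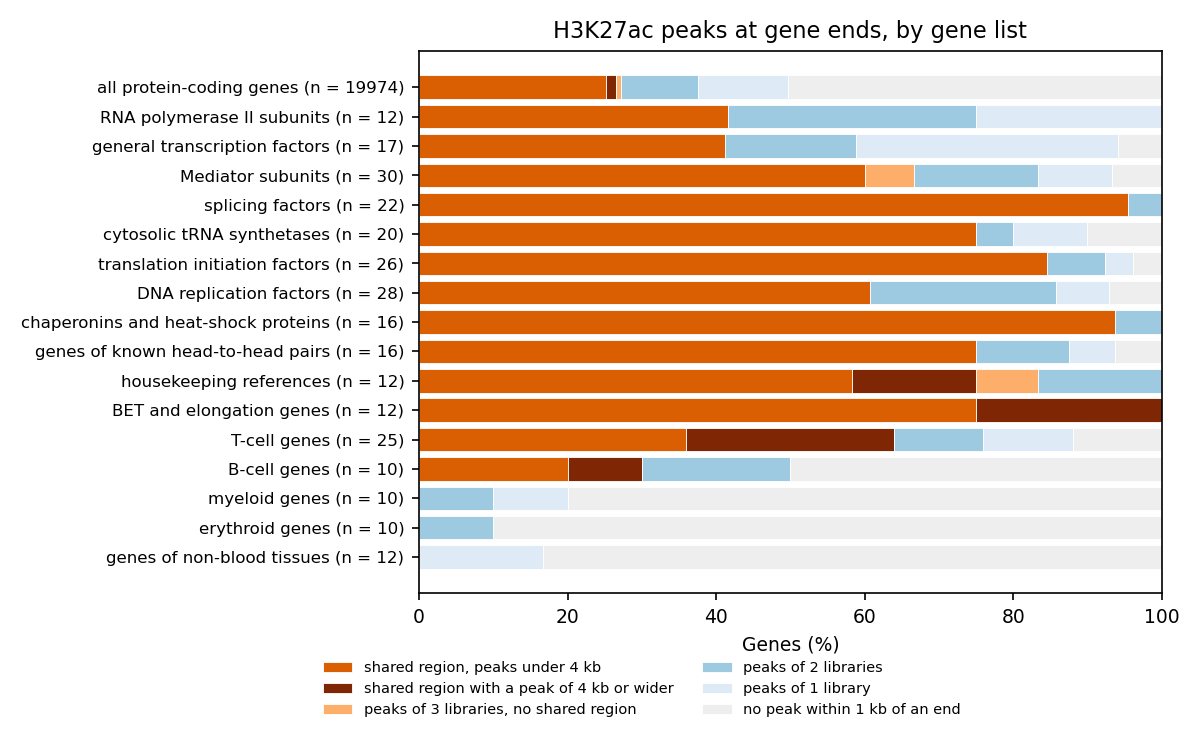
Share of the genes of each list (percent, number of genes in parentheses) by their H3K27ac peaks within 1 kb of an end, with all protein-coding genes on top. The leftmost segment is the share with a member: 95.5% for splicing factors, 93.8% for chaperonins and heat-shock proteins, 36.0% for T-cell genes and 25.2% for all genes.

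Covered bases were then compared between the lines, within the cap that the 4 kb limit puts on every library. Each log2 ratio of 6T-CEM to a Jurkat library was centred on its median over the 8620 shared regions, which was 0.11 for replicate 1 and 0.12 for replicate 2. After centring, 1200 members (28.7%) had more bases under peaks in 6T-CEM than in both Jurkat libraries, against 31.8% of all shared regions, and 1510 (36.1%) had fewer than both, against 31.8% again. Without centring the split turned round, with 1607 members above both and 1144 below both. Leaving out the centres raises the ratio of every shared region, not only of the members. The uncentred shares over all shared regions are not given here, so this reversal is not a result about the members. The centred median log2 ratio of 6T-CEM to the Jurkat mean was −0.06 over the members, while that of Jurkat replicate 1 over 2 was 0.18. Against the single Jurkat libraries the centred median of 6T-CEM was −0.14 for replicate 1 and 0.02 for replicate 2. Each shift between the lines was thus smaller in size than that between the Jurkat libraries, though close to it for replicate 1.

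Few members stood 2-fold or more apart. In 104 members (2.49%) 6T-CEM was at least 2-fold above both Jurkat libraries, against 3.49% of all shared regions. In 136 (3.25%) it was at least 2-fold below both, against 3.41% of all shared regions. The share above was under the background and the share below was close to it, and the background includes the members. In the 245 wide gene-end regions that the rule set apart, 9.39% were at least 2-fold above and 2.45% at least 2-fold below. Taken 1 pair at a time and in either direction, the Jurkat libraries differed by at least 2-fold in 795 members (19.0%, background 26.7%). By the same measure 6T-CEM differed from Jurkat replicate 1 in 19.2% of members (background 27.4%). It differed from Jurkat replicate 2 in 15.7% (background 16.8%). Without centring, 142 members were at least 2-fold above both Jurkat libraries and 101 below both, and the median log2 ratio was 0.06. The split thus turned round with the scaling, and the uncentred background for these counts is not given here. Against 1 Jurkat library alone, the counts were larger by construction: without Jurkat replicate 1, 527 of 5010 members were above (10.5%, background 11.3%) and 312 below (6.23%, background 8.62%). Without Jurkat replicate 2, 426 of 5167 were above (8.24%, background 15.7%) and 583 below (11.3%, background 10.8%). At a threshold of 1.5-fold, 301 members (7.20%) lay above both libraries, against a background of 8.93%, and 345 (8.25%) below both, against 8.34%.

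**Figure D4:**
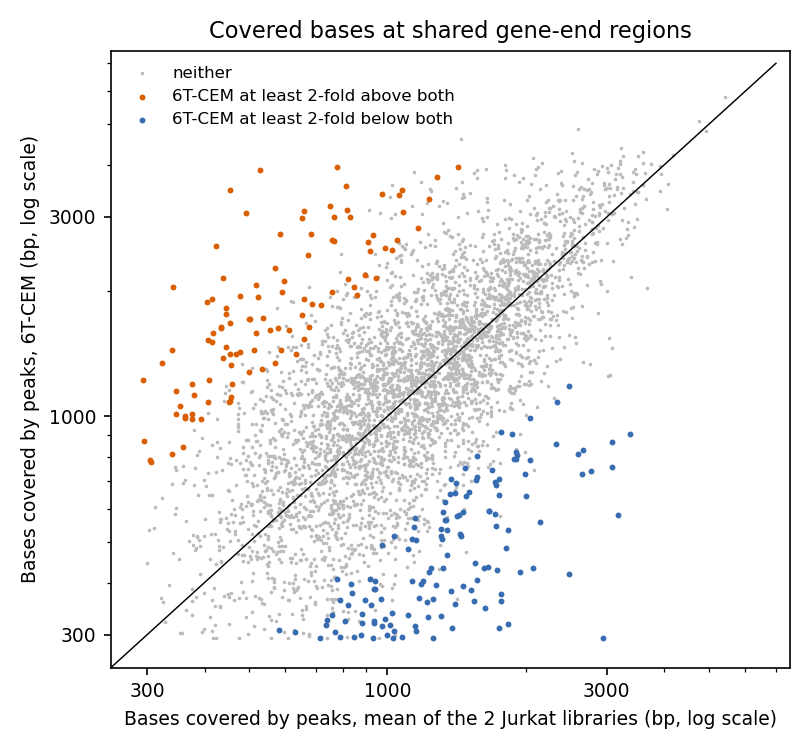
Bases under peaks in 6T-CEM (vertical) against the mean of the 2 Jurkat libraries (horizontal) for each of the 4181 members, in bp on log axes, with the line of equal values. The 104 members with 6T-CEM at least 2-fold above both Jurkat libraries lie at upper left and the 136 at least 2-fold below both at lower right, and the rest scatter around the line, with an SD of the log2 ratio of 0.65 over all members.

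The 6 members with the largest excess in 6T-CEM lay at genes of varied function. NT5M, a mitochondrial nucleotidase, had 3482 bp under peaks in 6T-CEM, against 501 bp and 409 bp in Jurkat replicates 1 and 2. JAK3, the kinase of cytokine receptors that share the common gamma chain, had 3897 bp in 6T-CEM, against 428 bp and 630 bp in Jurkat. FOXP1, a forkhead factor of lymphocytes, had 3070 bp in 6T-CEM, against 402 bp and 581 bp in Jurkat. At each of these 3 genes both Jurkat libraries lay close together and far below 6T-CEM. The centred log2 ratio to the nearer Jurkat library was 2.69 at NT5M, 2.51 at JAK3 and 2.28 at FOXP1. FXYD5, a regulator of the sodium pump, had 2042 bp in 6T-CEM, against 315 bp and 367 bp in Jurkat. EFHD2, a calcium-binding protein, had 2561 bp in 6T-CEM, against 540 bp and 307 bp in Jurkat. TRIM25, a ubiquitin ligase of antiviral sensing, had 3097 bp in 6T-CEM, against 669 bp and 646 bp in Jurkat.

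Width and enrichment did not always move together at these genes. At JAK3 the fold was 5.27 in 6T-CEM, against 5.76 and 3.78 in Jurkat, so that 6T-CEM lay between the Jurkat libraries. The summits at JAK3 lay 22 bp after the start in 6T-CEM, against 2 bp and 37 bp before it in Jurkat, within the printed promoter or next to it. At NT5M the fold was 6.35 in 6T-CEM, against 4.72 and 3.15 in Jurkat.

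The members with the largest deficit in 6T-CEM were led by a clock gene. PER1, a repressor of the circadian clock, had 294 bp under peaks in 6T-CEM, against 2871 bp and 3015 bp in Jurkat, a centred log2 ratio of −3.40 to the nearer library. Its fold was 3.40 in 6T-CEM, against 8.20 and 6.91 in Jurkat. At PER1 width and fold were thus both lower in 6T-CEM. The start of THOC5, of the THO complex of messenger RNA export, shares a member with the 3′ end of NIPSNAP1, and had 319 bp in 6T-CEM, against 1878 bp and 1785 bp in Jurkat. The start of ZNF513, a zinc-finger gene, with the 3′ end of PPM1G, a protein phosphatase, had 311 bp in 6T-CEM, against 1531 bp and 1960 bp in Jurkat. ELK4, itself an ETS factor, had 312 bp in 6T-CEM, against 1300 bp and 1465 bp in Jurkat. In these 4 members the single 6T-CEM peak was 294 to 319 bp wide, where the shortest width of any member in 6T-CEM was 294 bp.

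CD1B and CD1A, which encode lipid-presenting proteins of immature thymocytes, were also among the 6 lowest. CD1B had 419 bp in 6T-CEM, against 2782 bp and 2171 bp in Jurkat, and CD1A had 579 bp in 6T-CEM, against 3990 bp and 2350 bp in Jurkat. The fold at CD1A was 7.27 in 6T-CEM, against 6.66 and 8.47 in Jurkat, so only the width stood apart there. TAL1, a T-ALL oncogene, had 832 bp in 6T-CEM, against 2411 bp and 2911 bp in Jurkat.

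**Figure D5:**
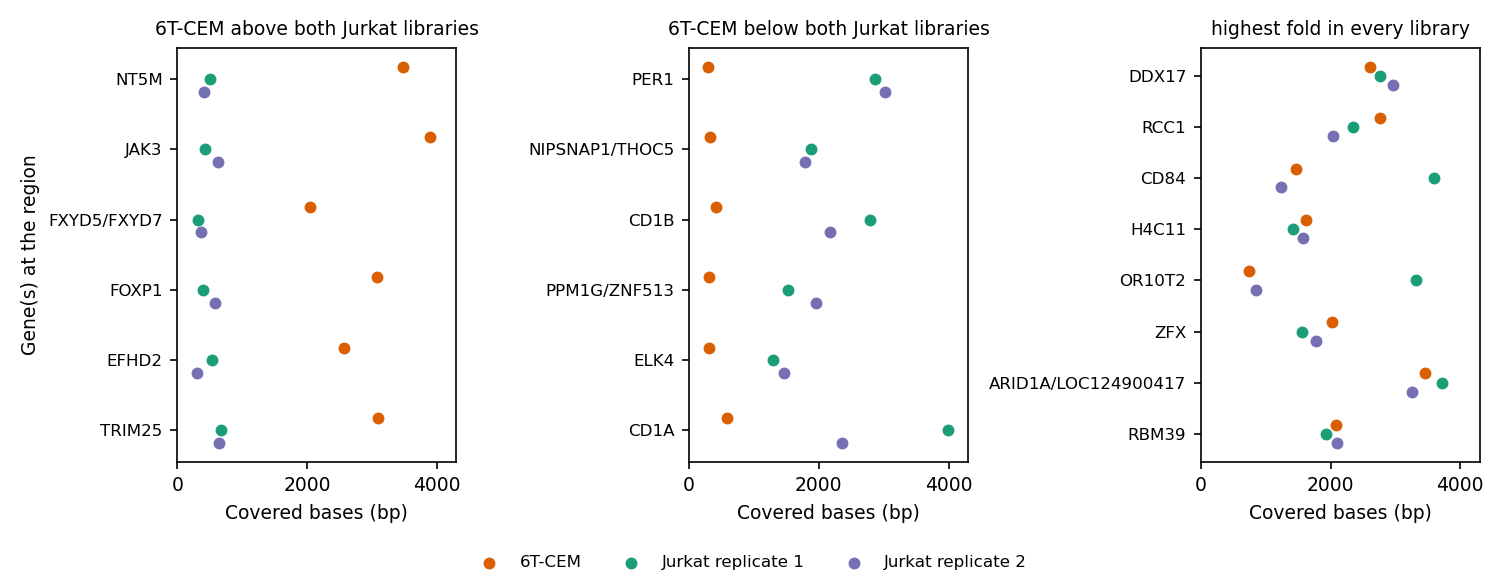
Bases under peaks (bp) in 6T-CEM and the 2 Jurkat libraries for the 6 members with the largest excess in 6T-CEM (left), the 6 with the largest deficit (middle) and the 8 of highest fold in every library (right). The Jurkat points lie close together in the left panel and apart from 6T-CEM in the left and middle panels, whereas at CD84 and OR10T2 on the right Jurkat replicate 1 stands apart from the other libraries.

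In the lists, above and below again refer to both Jurkat libraries after centring, with the counts of bases without centring given beside them. Over all members 28.7% lay above and 36.1% below after centring. Without centring 1607 of the 4181 members lay above and 1144 below. Of the 14 member regions of the chaperonin and heat-shock list, none lay above and 11 (78.6%) below after centring, while without centring 3 had more bases in 6T-CEM and 6 fewer. Their median log2 ratio was −0.32 after centring and −0.21 without, against −0.06 and 0.06 over all members. None of them was 2-fold apart. HSP90AB1, a cytosolic chaperone, had 974 bp in 6T-CEM, against 1687 bp and 1476 bp in Jurkat. CCT3, a subunit of the cytosolic chaperonin, had 572 bp in 6T-CEM, against 987 bp and 1021 bp in Jurkat. HSPD1, given above with its neighbour, differed little between the libraries.

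Of the 23 regions of splicing factors, 5 lay above and 14 (60.9%) below after centring, with a median of −0.13, while without centring 9 had more bases and 11 fewer. U2AF1, which reads the 3′ splice site, had 1765 bp in 6T-CEM, against 2972 bp and 2763 bp in Jurkat. SRSF3, a serine- and arginine-rich splicing factor, had 1431 bp in 6T-CEM, against 1359 bp and 1391 bp in Jurkat. Of the 26 regions of translation initiation factors, 6 (23.1%) lay above and 9 (34.6%) below after centring, near the shares over all members, with 10 and 7 without centring. EIF4E, the cap-binding protein, had 1395 bp in 6T-CEM, against 782 bp and 697 bp in Jurkat. Of the 19 Mediator regions, 6 lay above and 6 below (31.6% each) after centring, with 6 and 5 without centring, and MED20 was its widest departure, with 436 bp in 6T-CEM, against 2115 bp and 1201 bp in Jurkat. MED12, of the kinase module, had 1625 bp in 6T-CEM, against 773 bp and 705 bp in Jurkat.

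Among genes linked to BET proteins, 5 of the 9 member regions lay above and 3 below, both with and without centring, and the centred median was 0.24. HEXIM1, an inhibitor of the elongation kinase P-TEFb, had 3144 bp in 6T-CEM, against 2435 bp and 1729 bp in Jurkat. The 3′ end of CCND3, a D-type cyclin gene, had 1987 bp in 6T-CEM, against 769 bp and 745 bp in Jurkat. MCL1, an inhibitor of apoptosis, had 1294 bp in 6T-CEM, against 1402 bp and 1699 bp in Jurkat.

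Of the 12 regions at T-cell genes, 4 (33.3%) lay above and 6 below after centring, with 5 and 4 without centring, and the centred median was −0.09. LAT had 3810 bp at its start in 6T-CEM, against 3971 bp and 3898 bp in Jurkat, and CD247, the zeta chain of the T-cell receptor complex, had 2206 bp in 6T-CEM, against 2101 bp and 2134 bp in Jurkat. BCL11B, a T-lineage factor, had 3478 bp in 6T-CEM, against 922 bp and 1225 bp in Jurkat. NOTCH1, the receptor that drives T-lineage commitment, had 3115 bp in 6T-CEM, against 297 bp and 1524 bp in Jurkat, with the Jurkat libraries themselves far apart. CD79A, of the B-cell list, had 2144 bp in 6T-CEM, against 1168 bp and 1948 bp in Jurkat.

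Members at 3′ ends were wider in 6T-CEM. The 196 members with a 3′ end nearest had a median of 1534 bp under peaks in 6T-CEM, against 940 bp and 1333 bp in Jurkat replicates 1 and 2. The 3340 with a start nearest had 1162 bp in 6T-CEM, against 1228 bp and 981 bp in Jurkat. The median log2 ratio of 6T-CEM to the Jurkat mean was 0.18 at 3′ ends and −0.07 at starts. The 124 members at a 3′ end with no listed start of any gene had 1465.5 bp in 6T-CEM, against 775 bp and 1332.5 bp in Jurkat, so that Jurkat replicate 1 was the narrow one. Distal regions had the same order, with 1314 bp in 6T-CEM, against 973 bp and 1209 bp in Jurkat.

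The rule's limits cut through a continuous range. Just inside the 1 kb window lay regions at PHF19, CD28 and VPS26C, 998 bp, 994 bp and 984 bp from a gene end. Just outside lay regions at RASA3, ST8SIA4 and PLEKHF1, 1008 bp, 1008 bp and 1018 bp away. The widest peaks just under 4 kb were at BCL11A (3999 bp), CD1A (3990 bp) and BST2 (3976 bp), and the narrowest just over it at DDIT3 (4014 bp), CACNB1 (4016 bp) and FCHSD2 (4021 bp).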

How the data were processed

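H3K27ac peak lists of 6T-CEM (1 library) and Jurkat (2 libraries) were analysed, and the 3 IgG samples were not. The tools named in the submitters' processing notes are MACS2 2.2.7 and Bowtie2 2.2.5, with hg38 as the build. Calling options and the control used are not given in the sources used here. CUT&Tag is the assay in the series description, but sonication appears in the labels' extraction protocol. The authors' deposited lists, called per library and not pooled per the peak names, give the fold over the background of the caller, which is a ratio, −log10 p and −log10 q values, a score that is 10 times the −log10 q without its decimals, and the summit offset. These were used as deposited, and the fold only to describe or rank regions within a library. With no read counts, depth is unknown and nothing was scaled to it. Intervals (95%) cover counting error only.

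Gene ends were those of RefSeq on GRCh38.p14, and strands, starts and promoters from its promoter table, which matched 15813 of 19974 protein-coding genes and none on chromosome 8. Of these starts, 16.2% lay inside the gene, not at its outer end. A start within 1 kb of a member counted as in it. Covered bases were the bases of a library's peaks in a region. CpG observed over expected used the 300-base promoter, with limits of 0.75 and 0.48. No test or p-value was computed.

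Members and gene lists were chosen with earlier results of these data known. Genes named were those of 16 lists, the 8 members whose lowest within-library percentile of fold was highest, the 6 per direction with the largest centred ratio to the nearer Jurkat library, the 4 with most gene ends and the 3 regions on each side of a limit. List genes given as examples were chosen after their values were seen. Alternatives were −log10 q of 5 or more, equal list lengths (16159 peaks), overlap of 50%, windows of 500 bp and 2.5 kb, width limits of 3 kb and none, each Jurkat library left out, a 1.5-fold threshold and no centring. On simulated data, all 20000 regions were classed correctly. Figures were drawn with matplotlib 3.10.9, and values computed with SciPy 1.17.1, pandas 2.3.3 and NumPy 2.4.6 in Python 3.11.15.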

Additional observations from a re-analysis of the deposited data

How the results depend on the processing

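Membership depended on list length: with the 16159 peaks of highest −log10 q from each list, 2573 members were found, and without 1 Jurkat library 5010 to 5167. The share of members at a start was 92.6% with a 2.5 kb window, 95.5% with 500 bp, 92.9% with no width limit and 87.4% to 94.96% without 1 Jurkat library. The share of protein-coding genes with a member was 19.4% with −log10 q of 5 or more, 15.9% with equal lists, 26.9% and 24.4% with windows of 2.5 kb and 500 bp, 24.0% and 26.5% with width limits of 3 kb and none, and 28.1% to 30.6% without 1 Jurkat library. Members at least 2-fold above both Jurkat libraries numbered 60 with −log10 q of 5 or more, 58 with equal lists, 301 at 1.5-fold and 426 to 527 without 1 Jurkat library. Those 2-fold below numbered 73 with equal lists, 345 at 1.5-fold and 312 to 583 without 1 Jurkat library. A looser limit or 1 library fewer to pass raises these counts by construction. With −log10 q of 5 or more and with equal lists there were fewer members. With −log10 q of 5 or more, 1.90% of members lay above and 3.17% below, against 2.77% and 3.54% of all shared regions. With equal lists, 2.25% of members lay above and 2.84% below, against 3.802% and 3.12% of all shared regions. The shares of members thus stayed under those of all shared regions, which moved with the setting too. The cause of these shifts was not tested. The median log2 ratio of 6T-CEM over Jurkat lay between −0.13 and 0.0077 without 1 Jurkat library. Of 81 shares of single motifs recomputed under the other settings, 75 stayed inside the interval of the reported value and 6 did not. The median CpG ratio lay between 0.878 and 0.887 under every alternative run.

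No paired analysis was possible because 6T-CEM has 1 H3K27ac library, with no replicate number, and no result comes from a test. Peak lists carry no depth, so a missing peak does not show missing acetylation.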

Other observations

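Members were spread unevenly over the chromosomes. Chromosome 17 had a member at 35.9% of its protein-coding genes, chromosome 16 at 33.3% and chromosome 22 at 32.8%. The lowest shares were 9.55% on chromosome X, 15.5% on chromosome 8 and 17.4% on chromosome 4. On chromosome X, 19.0% of genes had a peak at an end in 6T-CEM, against 24.4% and 18.6% in Jurkat replicates 1 and 2, where over all chromosomes 41.3% did in 6T-CEM, against 37.9% and 34.0% in Jurkat. The 73 members of chromosome X had a median of 847 bp under peaks in 6T-CEM, against 1014 bp and 887 bp in Jurkat, and a median log2 ratio of −0.22, against −0.05 for the autosomes.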
